A study of Mus musculus with 79 samples.

Results

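The effect of EGCG on unsorted mouse Th17 cells was compared between cells grown under pathogenic conditions (Th17p) and cells grown under non-pathogenic conditions (Th17n). For each gene, the change from DMSO to EGCG in Th17n was subtracted from the same change in Th17p, which is the interaction of compound and cell type. The members were the 20 libraries of total cells that this difference uses, out of 79 in the series: 5 of Th17p with DMSO, 5 of Th17p with EGCG, 5 of Th17n with DMSO and 5 of Th17n with EGCG. Th17n cells had been differentiated in culture with TGFb plus IL-6, and Th17p cells with IL-23, IL-6 and IL-1b. EGCG was given at 20 uM and DMSO was its solvent. All cells carried the division dye CFSE, and "Total" cells were not sorted on it. The labels count 5 mice per condition and give no strain, age or time in culture. The series also holds cells sorted after 1 division (Div.1) and cells with DHEA at 50 uM or its solvent methanol, which are used here for comparison.

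Th17 cells are helper T cells that secrete IL-17A, IL-17F and IL-22. Grown with TGFb and IL-6 they make IL-10 and IL-9 and provoke little tissue inflammation on transfer, whereas exposure to IL-23 gives cells that can drive autoimmune inflammation. EGCG is epigallocatechin gallate, a catechin of green tea that has been described as an inhibitor of the glycolytic enzyme phosphoglycerate mutase.

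Expression was given in TPM, an abundance scaled for transcript length and library size. Depth was unknown, since TPM keep no counts. The 20 libraries each had between 9402 and 9757 genes at 1 TPM or more, and their 10 most abundant genes took 7.09% to 7.87% of the total. The summed TPM of 9 T cell markers ran from 1881 to 3130, so the cells carried the label's cell type. Of 12 markers of CD8 T and NK cells, 4 reached 1 TPM in any library, and their sum was 4.85 to 8.41 TPM in Th17p with DMSO, 8.59 to 13.7 in Th17p with EGCG, 16.4 to 28.8 in Th17n with DMSO and 12.6 to 21 in Th17n with EGCG; Klra8 was at 0 throughout. The 10 B cell markers summed to 0.855 to 2.89 TPM. The sum of 15 myeloid markers, 177 to 244 TPM, was nearly all Cst3, which T cells also express, and Lyz2 and S100a9 were at 0. Erythroid markers summed to at most 1.37 TPM in 3 of the groups and to 1.16 to 30 TPM in Th17n with EGCG, where replicate 1 was the library at 30. That library also stood apart on the first within-group component, with a weight of 0.84 on an axis that held 19.6% of the variation among replicates.

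The titles place each library in a plate well, and the well row follows the groups. From the first row to the last, the rows held Th17p with solvent, Th17p with compound, Th17n with solvent and Th17n with compound, each as a Div.1 row followed by a Total row. The difference between responses therefore adds 2 inner rows (Th17p with EGCG, Th17n with DMSO) and subtracts Th17p with DMSO and the last row of the plate (Th17n with EGCG). A gene whose level is low at the edges of the plate would give a positive difference with no compound involved, and one that is high at the edges a negative difference; for such genes row and compound cannot be told apart. The DHEA and methanol libraries sat in the same rows, in other columns, and give a row profile that also holds any response to DHEA. Among 7360 genes whose mean reached 5 TPM in at least 1 group of each cell type, 265 (3.6%) had their lowest means of the DHEA columns in the first and last rows. Among the 1032 of them with a called positive EGCG difference the number was 203 (19.7%), and among the 700 with a called negative difference it was 1 (0.143%). The mirror profile, with the highest means in the first and last rows, was found for 38 of the 7360 genes (0.516%), for 1 of those with a positive difference (0.0969%) and for 6 of those with a negative one (0.857%). The DHEA columns share no library with the EGCG difference, so these counts are not fixed by construction. If the EGCG columns had the same profile, one low at the edges would give positive differences and its mirror negative ones.

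With limma, 10672 genes were tested; "called" means an adjusted p below 0.05 among them, and the size given for a gene list counts its tested genes. Changes are on the scale of log2(TPM + 1), which understates changes of genes near 1 TPM. Values after ± are SD for TPM and SE for differences, with 5 libraries in each group. EGCG changed 4794 genes in Th17p (44.9% of those tested), of which 3208 (30.1%) rose and 1586 (14.9%) fell. In Th17n it changed 3760 genes (35.2%), with 2319 (21.7%) up and 1441 (13.5%) down. Each response also compares different well rows, so for genes with a row profile compound and row cannot be told apart there either. The part of well row in these counts was not tested. The 2 responses differed for 2127 genes (19.9%). The difference was positive, meaning that EGCG raised the gene more or lowered it less in Th17p, for 1321 genes (12.4%), and negative for 806 (7.55%). These shares over all genes are the background for the list counts below. The median absolute difference was 0.18 over all genes and 0.48 over those called. It reached 1 or more for 284 of the positive and 65 of the negative calls. With TPM rescaled between libraries by their median ratio, 2330 genes were called, 1206 positive and 1124 negative, so that the excess of positive differences shrank from 62.1% to 51.8% of calls. Without replicate 1 of Th17n with EGCG, 1898 genes were called.

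**Figure D1:**
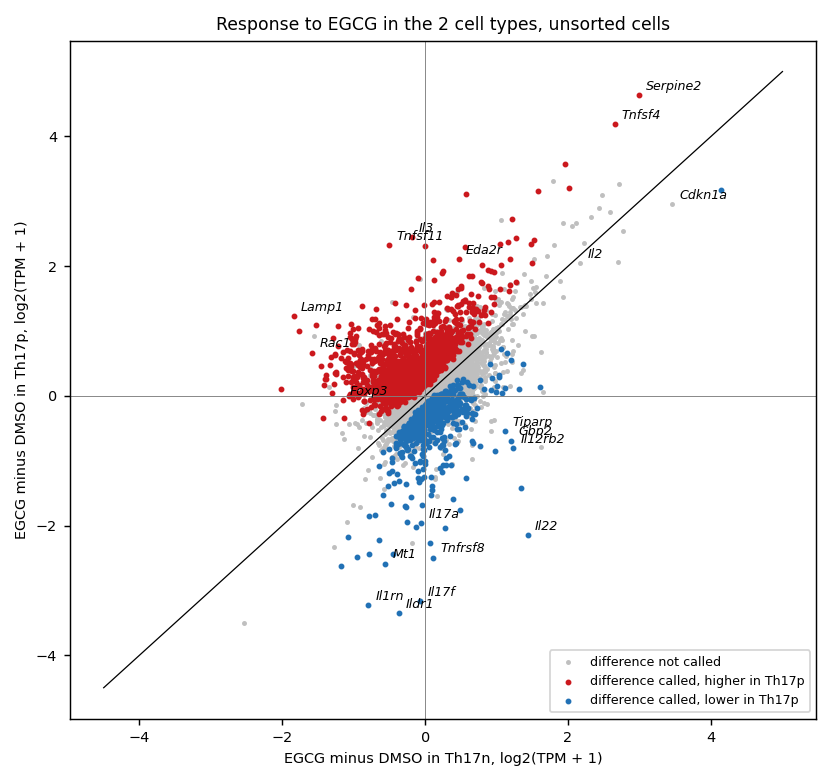
Change from DMSO to EGCG on the log2(TPM + 1) scale in Th17n (horizontal) and Th17p (vertical) for 10672 genes. Red and blue points are the 1321 genes with a positive and the 806 with a negative called difference, grey points were not called, and the black line marks equal responses. Il17f and Tnfrsf8 lie below the line, with a fall in Th17p and no called change in Th17n, and Il22, Il12rb2, Gbp2 and Tiparp lie in the quadrant of a fall in Th17p with a rise in Th17n.

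The direction of each response splits these calls. Of the 1321 positive differences, 528 (40%) were genes that rose in Th17p and were not called in Th17n, 322 (24.4%) fell in Th17n and were not called in Th17p, 216 (16.4%) rose in both and 192 (14.5%) rose in Th17p and fell in Th17n. Of the 806 negative differences, 430 (53.3%) fell in Th17p and were not called in Th17n. A further 139 (17.2%) rose in Th17n alone, 131 (16.3%) fell in both and 61 (7.57%) fell in Th17p and rose in Th17n. The genes at the extremes were mixed in kind. Of the 10 most negative at 5 TPM or more, 9 were Il22, Il17f, Ildr1, Tnfrsf8, Il1rn, Plac8, Mt2, Il12rb2 and Mt1, and the 10 most positive were Lamp1, Tnfsf11, Smap1, Il3, Phf13, Ramp3, Ccl1, Syap1, Dusp2 and Rac1. Ildr1, a receptor of the immunoglobulin superfamily, fell in Th17p from 15.1 ± 2.71 to 0.614 ± 0.424 TPM and was at 12 ± 1.48 and 9.25 ± 2.49 TPM in Th17n (-2.98 ± 0.31). Ramp3, a modifier of the calcitonin receptor family, rose in Th17p from 2.25 ± 0.769 to 26.8 ± 5.07 TPM (2.53 ± 0.27).

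The Th17 effector cytokines were among the genes with the largest negative differences. EGCG lowered Il17f, Il17a, Il22 and Il23r in Th17p, while in Th17n Il17f, Il17a and Il23r did not pass the test and Il22 rose. Il17f, encoding IL-17F, stood at 2491, 2670, 1935, 1848 and 2475 TPM in Th17p with DMSO and at 363, 113, 311, 273 and 282 TPM in Th17p with EGCG. In Th17n it stood at 7461, 7063, 7237, 6096 and 6146 TPM with DMSO and at 7125, 6414, 5681, 6566 and 6642 TPM with EGCG. The Th17p groups did not overlap and the Th17n groups did. The response was -3.17 in Th17p and -0.07 in Th17n, a difference of -3.10 ± 0.28 (adjusted p = 1.47e-13).

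Il17a, encoding IL-17A, was less abundant and more variable. It stood at 55.2, 86.8, 63.6, 59.9 and 101 TPM in Th17p with DMSO and at 21.1, 4.47, 40.5, 11.8 and 33.3 TPM with EGCG. The Th17n libraries ran from 254 to 550 TPM with DMSO and from 256 to 407 TPM with EGCG and overlapped throughout. The difference was -1.91 ± 0.62 (adjusted p = 0.0215). It was no longer called without replicate 2 of Th17p with EGCG, the lowest library, where it was -1.47 (adjusted p = 0.0853).

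Il22, encoding a cytokine that acts on epithelia, moved in opposite directions. In Th17p it stood at 298, 433, 286, 320 and 370 TPM with DMSO and at 71.5, 34.3, 107, 87.2 and 104 TPM with EGCG, with no overlap. In Th17n it stood at 1.72, 10.7, 13.4, 4.5 and 3.54 TPM with DMSO and at 12.2, 27.3, 28, 16.4 and 7.84 TPM with EGCG, where the groups overlapped. The difference of -3.59 ± 0.58 (adjusted p = 3.51e-06) was the most negative among genes at 5 TPM or more. Il23r, the receptor subunit for IL-23, fell from 20.1 ± 2.93 TPM to 5.56 ± 1.02 TPM in Th17p, with no overlap, and was at 2.89 ± 1.26 and 2.74 ± 0.964 TPM in Th17n. Its difference was -1.65 ± 0.27 (adjusted p = 3.1e-06).

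**Figure D2:**
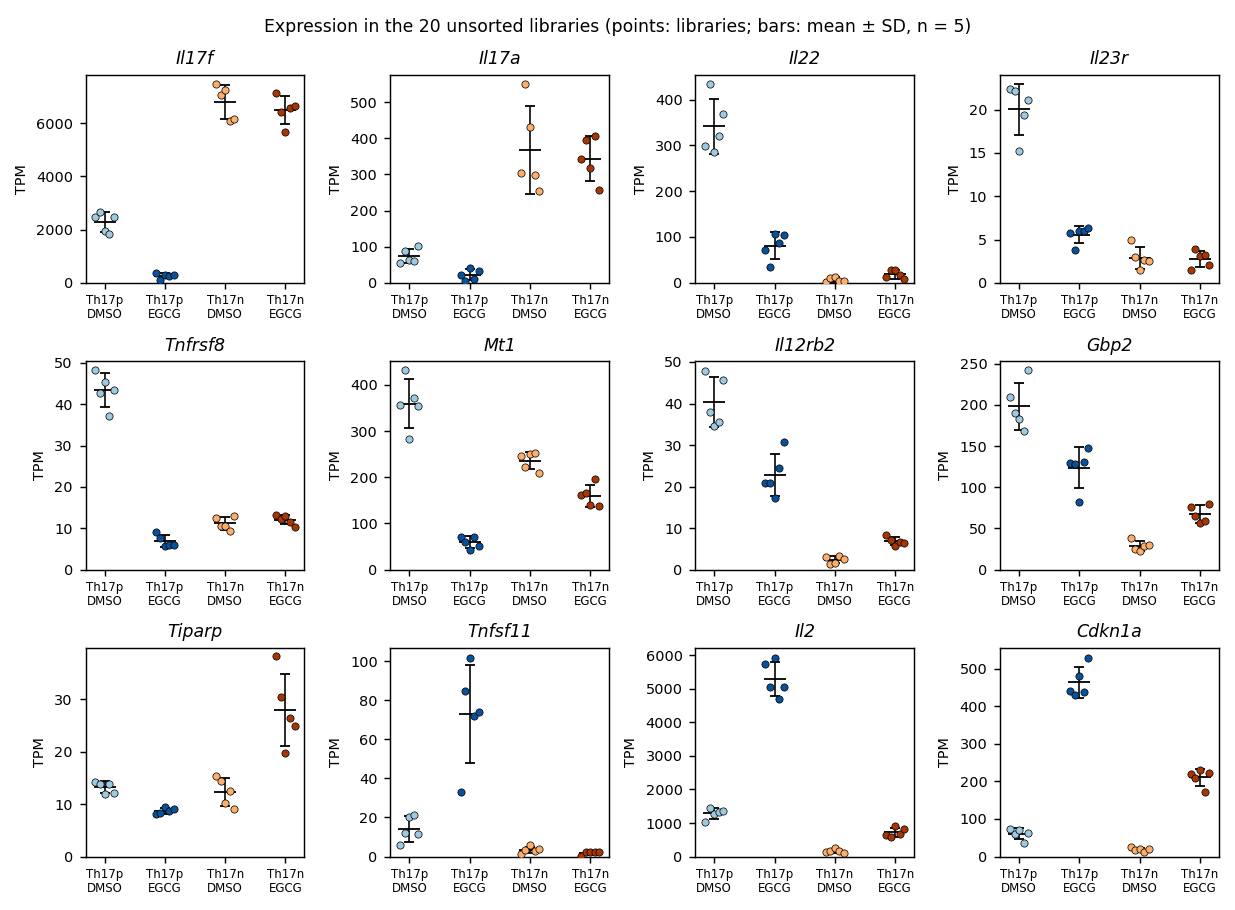
TPM of 12 genes in the 20 unsorted libraries, 1 point per library, with the mean and SD of 5 libraries per group; each vertical axis starts at 0. Il17f, Il22, Il23r, Tnfrsf8 and Mt1 are lower with EGCG in every Th17p library, Il12rb2, Gbp2 and Tiparp move in opposite directions in the 2 cell types, and Il2 and Cdkn1a rise in both.

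Of 20 core Th17 genes, 7 had a negative difference and none a positive one, with a median of -0.44 against 0.03 over all genes. Batf, a factor that opens chromatin in Th17 cells, fell in Th17p and rose in Th17n (-0.67 ± 0.09, adjusted p = 7.34e-08). Among other transcription factors, the differences of Maf (0.05 ± 0.17, adjusted p = 0.873), Ahr (-0.28 ± 0.16, adjusted p = 0.214), Tbx21 (-0.30 ± 0.26, adjusted p = 0.465) and Myc (0.02 ± 0.09, adjusted p = 0.932) did not pass. Ahr, which averaged 1.33 TPM in Th17p with DMSO and 0.455 TPM with EGCG, was called with a pseudocount of 0.1 (-0.98, adjusted p = 0.00568). In unsorted cells a fall of a transcript in every cell and a smaller share of cells that make it cannot be told apart.

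Genes that mark Th17n cells were low in Th17p. Foxp3, the regulatory T cell factor, was below 1 TPM on average in Th17p and fell in Th17n from 59.9 ± 7.87 to 26.5 ± 4.79 TPM with no overlap. Its difference of 1.09 ± 0.23 (adjusted p = 0.000231) was not called with a pseudocount of 0.1 or with the excluded well A4 put back in its labelled group. Il10 was at 33.8 ± 8.21 and 27.1 ± 7.51 TPM in Th17n and its difference did not pass (adjusted p = 0.982). Il9 fell in both types, from 15.7 ± 8.27 to 2 ± 2.24 TPM in Th17p and from 2654 ± 475 to 1354 ± 155 TPM in Th17n. The difference of -1.52 ± 0.52 (adjusted p = 0.0283) was not called under 10 of 28 alternatives, with a highest adjusted p of 0.301 with A4 put back. Cd5l, a lipid regulator linked to the non-pathogenic state, was at 25.2 ± 4.47 and 29.9 ± 5.88 TPM in Th17n and at 3.08 ± 1.18 and 1.42 ± 0.639 TPM in Th17p (difference -0.97 ± 0.40, adjusted p = 0.0765; called with the 4 groups fitted alone, adjusted p = 0.0252, and without replicate 2 of Th17p with DMSO, adjusted p = 0.0388). Of 10 genes of the non-pathogenic signature, 4 had a negative difference and none a positive one (median -0.36), and without replicate 1 of Th17n with EGCG 4 were negative and 1 positive. The 18 tested genes of the pathogenic signature split into 4 positive and 3 negative (median 0.17).

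Surface receptors and ligands of the TNF superfamily, which give costimulatory signals, moved both ways. Of 18 genes, 8 had a positive and 2 a negative difference (median 0.41), and the counts were 5 and 2 without replicate 1 of Th17n with EGCG. Tnfrsf8, encoding CD30, stood at 48.2, 42.7, 45.5, 37.3 and 43.4 TPM in Th17p with DMSO and at 9.04, 7.73, 5.84, 6.08 and 6 TPM with EGCG. In Th17n its libraries lay between 9.38 and 13.1 TPM with DMSO and between 10.4 and 13.2 TPM with EGCG. EGCG thus took Th17p from above Th17n to below it, and the difference was -2.60 ± 0.20 (adjusted p = 1.71e-16). Tnfrsf1b, a TNF receptor, also fell more in Th17p (-0.74 ± 0.10, adjusted p = 2.26e-08).

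The ligand genes Tnfsf11 and Tnfsf4 had positive differences. Tnfsf11, encoding RANKL, stood at 5.88, 12, 20.2, 21.3 and 11.3 TPM in Th17p with DMSO and at 33.1, 84.8, 102, 71.8 and 74 TPM with EGCG, with no overlap. In Th17n no library exceeded 5.76 TPM and the groups overlapped. The difference was 2.83 ± 0.43 (adjusted p = 1.04e-06). Tnfsf4, encoding OX40 ligand, rose in both types without overlap, from 2.55 ± 0.695 to 62.7 ± 3.67 TPM in Th17p and from 0.997 ± 0.212 to 11.9 ± 3.48 TPM in Th17n (difference 1.54 ± 0.30, adjusted p = 7.15e-05). Cd274, encoding the inhibitory ligand PD-L1 of another family, rose in Th17p from 12.1 ± 0.751 to 37.5 ± 3.85 TPM and in Th17n from 3.28 ± 1.07 to 4.67 ± 1.04 TPM (difference 1.13 ± 0.18, adjusted p = 2.42e-06). Of 11 inhibitory receptors and ligands tested, 9 rose in each cell type, beside 30.1% of all genes in Th17p and 21.7% in Th17n. Of the 11, 2 had a positive and 1 a negative difference, beside 12.4% and 7.55% over all genes.

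Il3, a myeloid growth factor made by activated T cells, was a further gene that rose in Th17p. It stood at 2.99, 16.1, 10.4, 9.85 and 6.28 TPM with DMSO and at 69.8, 55.2, 56.8, 36.5 and 33.4 TPM with EGCG. In Th17n it was listed at 0 in all 5 EGCG libraries and at 0 to 0.479 TPM with DMSO. The difference was 2.63 ± 0.44 (adjusted p = 7.11e-06). Il2, the T cell growth factor, rose in both types, from 1287 ± 158 to 5292 ± 514 TPM in Th17p and from 163 ± 46.2 to 724 ± 134 TPM in Th17n. Its difference was -0.13 ± 0.29, with a 95% interval from -0.70 to 0.45 (adjusted p = 0.819). Of 20 genes of T cell receptor activation, 6 had a positive and 2 a negative difference (median 0.28), and 4 and 3 without replicate 1 of Th17n with EGCG. Cd69, an early activation antigen, was among the 6 (0.80 ± 0.13, adjusted p = 7.84e-06), and Il2ra, the IL-2 receptor alpha chain, among the 2 (-0.63 ± 0.08, adjusted p = 2.92e-09). Dusp2 was also among the 6, and it rose in Th17p and fell in Th17n. In that class 42.9% of genes had their lowest means of the DHEA columns in the first and last rows. Whether well row moved Dusp2 was not tested. Rgs1, a brake on chemokine receptor signalling that was singled out after its values were seen, rose from 122 ± 6.04 to 464 ± 22 TPM in Th17p and from 379 ± 21.7 to 453 ± 49.6 TPM in Th17n (1.67 ± 0.11, adjusted p = 1.4e-19).

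Of 9 tested genes of cytotoxic granules, 6 had a positive difference and none a negative one (median 0.70). Serpinb9, the granzyme B inhibitor, rose in Th17p from 17.4 ± 1.99 to 49 ± 4.88 TPM and averaged under 1 TPM in Th17n (1.25 ± 0.24, adjusted p = 9.01e-05). With a pseudocount of 0.1 Serpinb9 (adjusted p = 0.214), Fasl, the ligand of the death receptor Fas (adjusted p = 0.511), and Serpinb6b, another serpin (adjusted p = 0.775), were not called. A further member of the 6 was Lamp1, for which compound and well row cannot be told apart. Of 9 chemokine ligands, 3 had a positive difference (median 0.93), and 2 without replicate 1 of Th17n with EGCG. Ccl4 rose in Th17p from 79.5 ± 16.9 to 181 ± 54.4 TPM, and its difference of 1.37 ± 0.45 (adjusted p = 0.021) was not called without replicate 1 of Th17n with EGCG (1.13, adjusted p = 0.0705). The summed CD8 T and NK cell markers given above were higher with EGCG than with DMSO in every Th17p library, and their part in these lists was not tested.

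Of 11 Th1 genes, 5 had a negative and 1 a positive difference (median -0.30). Il12rb2, a subunit of the IL-12 receptor, stood at 47.8, 38, 34.5, 35.5 and 45.8 TPM in Th17p with DMSO and at 20.9, 20.8, 17.3, 24.6 and 30.7 TPM with EGCG. In Th17n it stood at 3.1, 1.48, 1.66, 3.25 and 2.64 TPM with DMSO and at 8.37, 7.16, 5.81, 6.78 and 6.46 TPM with EGCG. Neither pair of groups overlapped, and the levels converged from both sides (-2.04 ± 0.21, adjusted p = 4.08e-11). Cxcr3, the Th1 homing receptor, did the same, from 45.5 ± 0.753 to 26.6 ± 4.58 TPM in Th17p and from 5.46 ± 0.702 to 10.1 ± 2.51 TPM in Th17n (-1.53 ± 0.21, adjusted p = 6.24e-08).

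Of 24 interferon response genes, 5 had a negative and 2 a positive difference (median -0.32). Gbp2, an interferon-induced GTPase, fell in Th17p from 198 ± 28.5 to 124 ± 24.7 TPM and rose in Th17n from 28.9 ± 5.91 to 67.5 ± 10.4 TPM, with no overlap in either type (-1.90 ± 0.22, adjusted p = 1.54e-09). On the IL-1 axis 5 of 16 genes had a negative and 1 a positive difference. Il1rn, the IL-1 receptor antagonist, stood at 18.3 to 33.9 TPM in Th17p with DMSO and at 0.844 to 3.02 TPM with EGCG, and fell in Th17n from 13.7 ± 3.05 to 7.91 ± 3.38 TPM (-2.43 ± 0.40, adjusted p = 5.07e-06). Il18r1 and Il18rap, the receptor chains for IL-18, fell in Th17p with differences of -1.33 ± 0.23 and -1.55 ± 0.21.

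Metallothioneins bind zinc and other metals, and Mt1 and Mt2 lie next to each other on chromosome 8. Both had differences near -2, while none of the other 6 genes of metal handling in the list passed the test. Mt1 stood at 356, 431, 282, 372 and 354 TPM in Th17p with DMSO and at 71.1, 59.6, 43, 71.8 and 51.4 TPM with EGCG. In Th17n it stood at 246, 223, 249, 252 and 209 TPM with DMSO and at 162, 165, 141, 197 and 138 TPM with EGCG. The groups did not overlap in either type, and the fall was larger in Th17p by 2.03 (difference -2.03 ± 0.22, adjusted p = 5.55e-11). Mt2 fell in Th17p from 116 ± 19.7 to 27.9 ± 6.82 TPM and was at 87.8 ± 8.78 and 107 ± 15 TPM in Th17n, where the groups overlapped (-2.31 ± 0.31, adjusted p = 7.87e-08).

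The promoters of Mt1 and Mt2 are shown because the pair moved together. They run from 250 bases before to 50 after the RefSeq start on GRCm38.p6, at chr8:94178839-94179138 and chr8:94172368-94172667, both on the plus strand. Capitals mark TGCNCNC, counted on both strands with overlapping matches allowed. It is looser than the metal response element core, which takes only A or G in place of the first N.
Mt1: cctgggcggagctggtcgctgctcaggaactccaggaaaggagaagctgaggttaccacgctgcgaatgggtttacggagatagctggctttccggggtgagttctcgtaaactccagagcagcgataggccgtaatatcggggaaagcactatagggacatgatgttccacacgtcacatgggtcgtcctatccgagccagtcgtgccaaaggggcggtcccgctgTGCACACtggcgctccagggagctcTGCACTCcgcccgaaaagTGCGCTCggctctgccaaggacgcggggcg
Mt2: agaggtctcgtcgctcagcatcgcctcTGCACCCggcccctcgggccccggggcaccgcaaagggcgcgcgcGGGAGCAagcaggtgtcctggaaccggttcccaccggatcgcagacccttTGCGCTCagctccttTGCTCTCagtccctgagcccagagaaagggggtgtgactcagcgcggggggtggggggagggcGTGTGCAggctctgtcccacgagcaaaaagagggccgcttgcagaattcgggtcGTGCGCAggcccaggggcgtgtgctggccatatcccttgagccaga
The Mt1 window held 3 matches to TGCNCNC and the Mt2 window 6. Among the Mt2 matches, TGCTCTC and, read on the opposite strand, GGGAGCA have T in place of the first N and are not the core. Of 32851 RefSeq promoters of this length, 7.1% held 3 or more and 0.225% held 6 or more. A match describes the letters and is not evidence of binding.

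Among targets of the aryl hydrocarbon receptor, a sensor of small aromatic ligands, Tiparp and Cyp1b1 rose in Th17n and not in Th17p. Tiparp, a poly-ADP-ribose polymerase that damps the receptor, stood at 14.3, 13.9, 11.9, 13.9 and 12.1 TPM in Th17p with DMSO and at 8.15, 8.21, 9.43, 8.65 and 9.11 TPM with EGCG. In Th17n it stood at 15.3, 14.3, 10.3, 12.4 and 8.99 TPM with DMSO and at 38.2, 30.4, 19.8, 26.5 and 24.8 TPM with EGCG. Neither pair overlapped, and the difference was -1.67 ± 0.24 (adjusted p = 2.2e-07). Cyp1b1, a cytochrome P450, was at 0.414 TPM or less in every Th17p library and rose in Th17n from 5.11 ± 1.66 to 11.1 ± 1.91 TPM with no overlap. Its difference of -0.86 ± 0.30 (adjusted p = 0.0323) was not called under 8 of 27 alternatives, with a highest adjusted p of 0.642 at a pseudocount of 0.1. Of 14 listed targets 10 were tested, and 2 had a negative and 1, Lipt2, a positive difference, beside 7.55% and 12.4% over all genes. Without replicate 1 of Th17n with EGCG 3 were negative and none positive, Lipt2 having an adjusted p of 0.145.

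Their promoters are shown for the response element core GCGTG, in capitals on either strand (CACGC on the opposite one). Tiparp lies at chr3:65528197-65528496 on the plus strand and Cyp1b1 at chr17:79715012-79715311 on the minus strand, on the same build and in the same window.
Tiparp: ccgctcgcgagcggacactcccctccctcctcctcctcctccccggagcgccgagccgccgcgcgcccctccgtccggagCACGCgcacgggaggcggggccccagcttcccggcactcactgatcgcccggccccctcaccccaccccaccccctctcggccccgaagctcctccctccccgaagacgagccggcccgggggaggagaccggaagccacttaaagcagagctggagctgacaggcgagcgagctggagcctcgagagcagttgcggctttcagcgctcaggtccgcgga
Cyp1b1: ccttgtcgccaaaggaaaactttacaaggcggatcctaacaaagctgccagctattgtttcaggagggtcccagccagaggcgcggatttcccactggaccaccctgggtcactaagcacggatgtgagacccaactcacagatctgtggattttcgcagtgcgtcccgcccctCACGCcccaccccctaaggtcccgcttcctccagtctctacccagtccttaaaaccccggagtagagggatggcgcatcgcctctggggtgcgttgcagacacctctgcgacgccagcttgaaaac
Each held 1 match, and 32.4% of RefSeq promoters held 1 or more.

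Most tested targets of p53, which answers DNA damage and other stress, rose in both types. Of 28 tested, 26 rose in Th17p and 22 in Th17n, and 14 had a positive difference and none a negative one (median 0.37). Eda2r, a TNF receptor family member, rose in Th17p from 0 to 0.813 TPM with DMSO to 4.15 to 6.31 TPM with EGCG, and was at 0.703 TPM or less in every Th17n library (1.64 ± 0.20, adjusted p = 2.59e-09; not called with a pseudocount of 0.1, adjusted p = 0.0717). Perp, a cell surface effector of p53, rose from 23.6 ± 3.04 to 76.4 ± 8.05 TPM in Th17p and from 18.7 ± 1.61 to 26.3 ± 4.27 TPM in Th17n (1.19 ± 0.18, adjusted p = 9.89e-07). Mdm2, the ubiquitin ligase of p53, had a difference of 0.71 ± 0.22 (adjusted p = 0.0173), not called without replicate 4 of Th17n with EGCG (adjusted p = 0.0621). Cdkn1a, the cell cycle inhibitor p21, rose from 60.5 ± 14.7 to 464 ± 41.3 TPM in Th17p and from 18.7 ± 4.78 to 211 ± 22.8 TPM in Th17n. Its difference of -0.50 ± 0.24, with an interval from -0.97 to -0.03, did not pass over all genes (adjusted p = 0.136), and was called without replicate 4 of Th17p with DMSO (-0.67, adjusted p = 0.0298).

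Of 27 genes of G2 and M phase, 24 fell in Th17p and 17 in Th17n, and 16 had a negative difference and none a positive one (median -0.31). Of 31 genes of DNA replication, 19 fell and 2 rose in Th17p, whereas 5 fell and 4 rose in Th17n, and 17 had a negative difference and none a positive one (median -0.26). Plk1, the mitotic kinase, fell from 169 ± 10.9 to 92 ± 12.3 TPM in Th17p and from 165 ± 7.67 to 129 ± 9.94 TPM in Th17n (-0.53 ± 0.09, adjusted p = 1.51e-05). Rfc3, a clamp loader subunit, fell from 187 ± 5.39 to 98 ± 2.87 TPM and from 116 ± 7.41 to 99.2 ± 9.18 TPM (-0.70 ± 0.07, adjusted p = 2.54e-11).

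Of 22 glycolytic genes, 14 fell and 2 rose in Th17p, whereas 8 rose and 2 fell in Th17n; 13 had a negative and 2 a positive difference (median -0.36), and 10 and 1 without replicate 1 of Th17n with EGCG. Pkm, pyruvate kinase, fell from 3053 ± 49.1 to 2622 ± 146 TPM in Th17p and rose from 2245 ± 55.4 to 2516 ± 65.9 TPM in Th17n (-0.39 ± 0.06, adjusted p = 1.99e-06). Gpi1, the isomerase of the second step, fell in Th17p from 411 ± 7.8 to 311 ± 11.9 TPM and was at 293 ± 3.42 and 303 ± 4.87 TPM in Th17n (-0.45 ± 0.05, adjusted p = 2.55e-09). Pgam1, phosphoglycerate mutase, fell in Th17p from 1582 ± 39.3 to 1181 ± 43.3 TPM and was at 1244 ± 78.5 and 1177 ± 34.8 TPM in Th17n (-0.34 ± 0.06, adjusted p = 2.81e-05). G6pdx, the entry enzyme of the pentose phosphate pathway, had a difference of -0.40 ± 0.08 (adjusted p = 0.000187). Of 33 genes of oxidative phosphorylation, 2 had a positive and 3 a negative difference (median 0.05), beside 12.4% and 7.55% over all genes.

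Cholesterol synthesis had 13 negative differences and none positive among 23 genes (median -0.29), and fatty acid synthesis 9 and 1 among 15 (median -0.32). Fdps, the farnesyl diphosphate synthase, fell from 497 ± 17.5 to 260 ± 14.6 TPM in Th17p and from 434 ± 28.3 to 347 ± 24.4 TPM in Th17n (-0.61 ± 0.10, adjusted p = 3.17e-06). Scd2, a stearoyl-CoA desaturase, fell from 94.4 ± 5.63 to 36.9 ± 7.26 TPM and from 101 ± 6.63 to 74.9 ± 15.7 TPM (-0.91 ± 0.16, adjusted p = 1.6e-05). Serine and one-carbon metabolism had 8 negative differences among 15 genes (median -0.29), ATF4 targets 12 negative and 3 positive among 27 (median -0.29), and heat shock genes 7 and 1 among 15 (median -0.13). Egln3, an oxygen-sensing prolyl hydroxylase, fell from 37.8 ± 5.12 to 12.5 ± 1.98 TPM in Th17p and was at 63.5 ± 4.73 and 67.6 ± 8.9 TPM in Th17n (-1.61 ± 0.16, adjusted p = 1.35e-11). Of the 19 hypoxia genes 3 had a positive and 2 a negative difference, beside 12.4% and 7.55% over all genes. Without replicate 1 of Th17n with EGCG, called differences numbered 12 positive among p53 targets, 13 negative in G2 and M phase, 11 negative in cholesterol synthesis, 11 negative and 2 positive among ATF4 targets, and 4 negative and 2 positive in the interferon response.

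**Figure D3:**
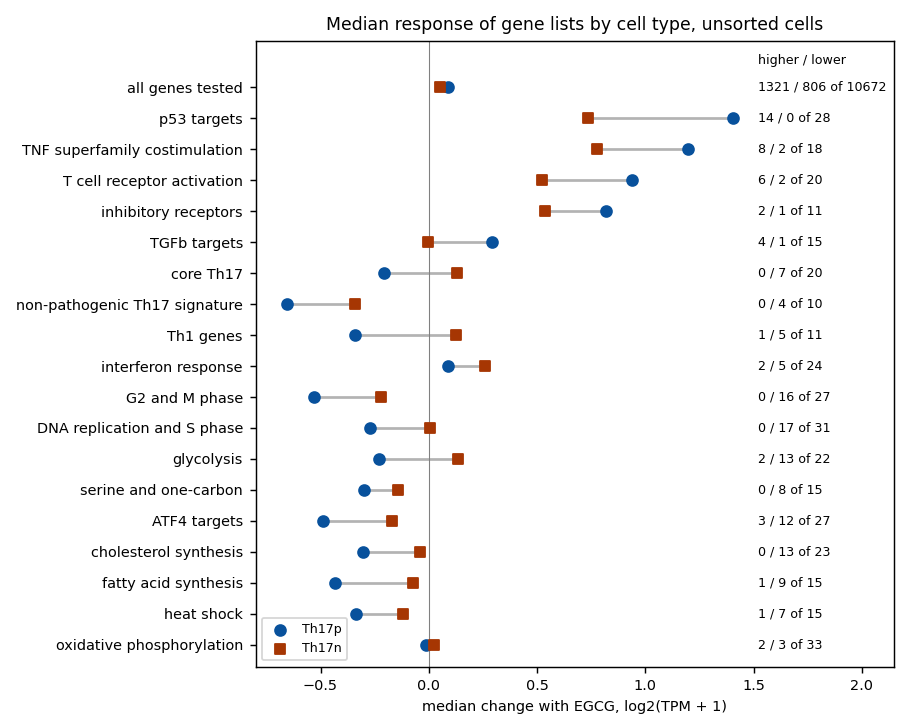
Median change with EGCG on the log2(TPM + 1) scale for 18 gene lists and all genes in Th17p (circles) and Th17n (squares), with the number of genes whose difference was higher or lower of those tested. The p53 targets lie furthest to the right in Th17p, with 14 higher and 0 lower of 28, and glycolysis and Th1 genes have medians on opposite sides of 0 in the 2 cell types.

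Genes with called responses in opposite directions included many with a bent row profile. At 5 TPM or more in both types, 170 rose in Th17p and fell in Th17n, and 73 of these (42.9%) had their lowest means in the first and last plate rows of the DHEA columns. Of the 55 that fell in Th17p and rose in Th17n, such as Il22, Il12rb2, Gbp2 and Tiparp, none had that profile. If the EGCG columns had it too, it would give positive differences. None of the 55 had its mirror, but only 38 of all 7360 genes (0.516%) did. A part of the well row in these 55 differences was therefore not tested. The genes with the largest positive differences in this class were Lamp1, Smap1, Syap1, Dusp2, Rac1 and Bloc1s4. Rac1, a small GTPase, stood at 78.3, 151, 184, 199 and 158 TPM in Th17p with DMSO and at 130, 246, 294, 290 and 254 TPM with EGCG. In Th17n it stood at 92.1, 185, 246, 238 and 237 TPM with DMSO and at 45, 56.2, 68.8, 90.1 and 59 TPM with EGCG. Replicate 1, from the outermost well column, was the lowest library of all 4 groups. The difference was 2.25 ± 0.37 (adjusted p = 3.9e-06), and that for DHEA in the same rows was 2.33 (adjusted p = 2.9e-06). Row by row the mean of Rac1 ran through 71.3, 154, 215, 243, 225, 200, 126 and 63.8 TPM in the EGCG columns and 95, 176, 228, 259, 269, 226, 143 and 65.8 TPM in the DHEA columns. Lamp1, a lysosomal membrane protein (3.07 ± 0.68), Mgat2, a Golgi glycosyltransferase (2.03 ± 0.33), and Srm, spermidine synthase (1.89 ± 0.37), had DHEA differences of 2.83, 1.96 and 1.95. For these genes the compound and the well row cannot be told apart.

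**Figure D4:**
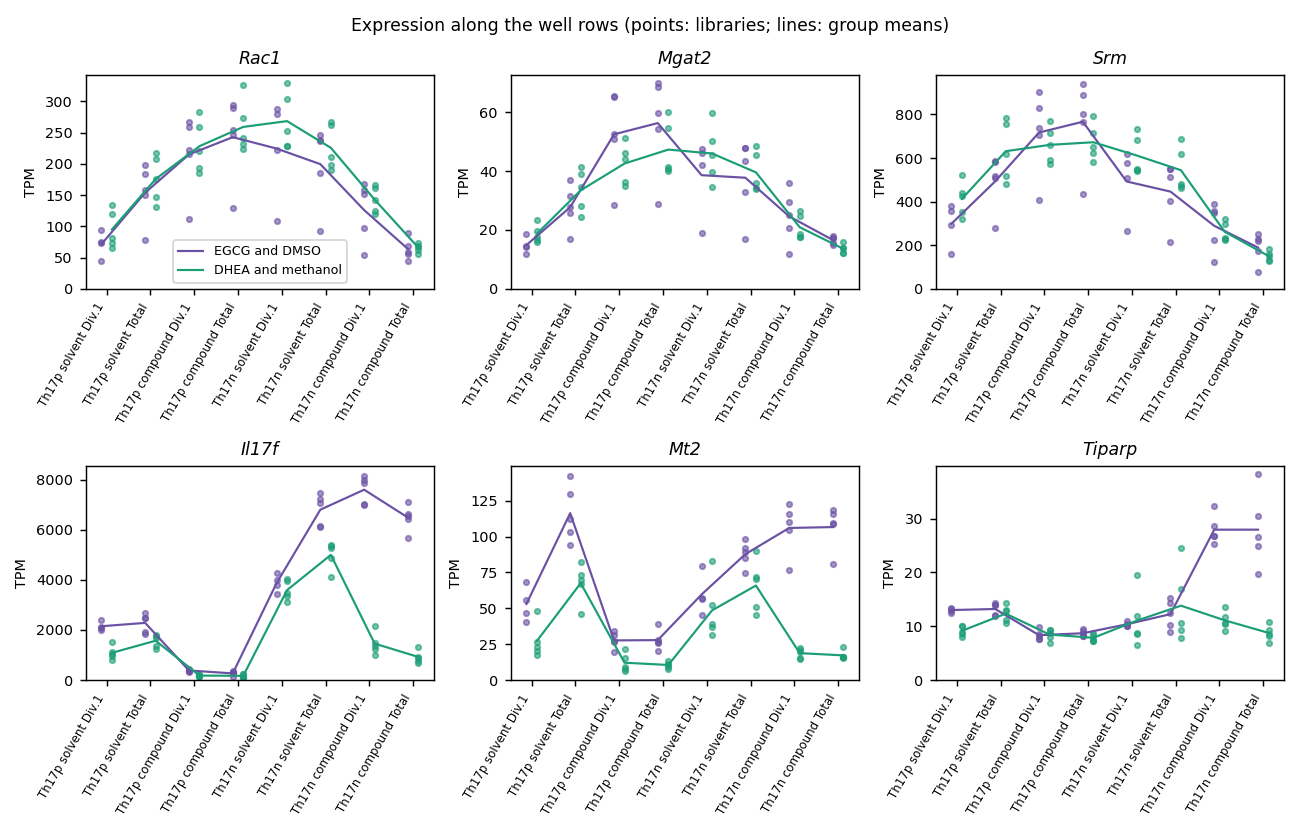
TPM of 6 genes along the 8 well rows, from first to last, in the EGCG and DMSO libraries (purple) and the DHEA and methanol libraries (green); points are libraries and lines join group means. Rac1, Mgat2 and Srm are low in the first and last rows for both compounds, whereas Il17f, Mt2 and Tiparp change with group and differ between the compounds.

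Cells sorted after 1 division, from other wells of the same plate, gave a reading from other libraries in the same layout of rows. There 1867 genes (17.5%) had a called difference, 973 (9.12%) positive and 894 (8.38%) negative. Of the 1321 positive calls in unsorted cells, 665 were positive calls there (50.3% of the former, 68.3% of the latter) and 1 was called negative. Of the 806 negative calls, 410 were shared (50.9% and 45.9%) and 2 were opposite. Over 7360 genes the Pearson correlation of the 2 sets of differences was 0.767, with rows that alternate along the same plate. The Div.1 difference subtracts the first row of the plate, so a gene low at the edges would give a positive difference there too. How much of the shared positive calls and of the correlation came from well row was not tested. In Div.1 cells the difference was -3.46 for Il17f, -3.92 for Il22, -3.11 for Il17a, -1.55 for Tnfrsf8, -1.19 for Mt1, -1.93 for Tiparp and 2.45 for Tnfsf11, and each was called. A test of unsorted against Div.1 cells called 9 genes (0.0843%), and between 3 and 105 under the alternatives.

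The DHEA libraries lie in the same rows but in other columns, at another dose and with another solvent. Differences between the compounds thus compare like rows. Whether the row acted alike in both sets of columns was not tested. The response to DHEA differed between cell types for 1578 genes (14.8%), 860 positive (8.06%) and 718 negative (6.73%). Of the positive EGCG calls 451 were positive for DHEA (34.1%, and 52.4% of the DHEA calls) and 72 negative. Of the negative EGCG calls 114 were shared (14.1% and 15.9%) and 34 opposite. The correlation over 7360 genes was 0.525. The EGCG difference departed from the DHEA difference for 1104 genes (10.3%), upward for 649 (6.08%) and downward for 455 (4.26%).

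Members of the Th17 program divided in this comparison. For Il22 the 2 differences were -3.59 and -3.31 (departure -0.28, adjusted p = 0.89), and for Il23r -1.65 and -1.31 (adjusted p = 0.65). For Il17f they were -3.10 and -0.82, and the departure of -2.29 passed (adjusted p = 2.2e-05). Its mean with methanol and with DHEA was 1573 and 171 TPM in Th17p, and 4997 and 923 TPM in Th17n. Tnfrsf8 (-2.60 and -0.11), Il12rb2 (-2.04 and -0.06), Tiparp (-1.67 and -0.09), Mt1 (-2.03 and -0.53) and Mt2 (-2.31 and -0.72) also departed, with adjusted p of 1.1e-09, 2.5e-06, 0.00065, 0.00037 and 0.012. With methanol and DHEA, Th17p means were 40.2 and 9.93 TPM for Tnfrsf8 and 12.35 and 7.86 TPM for Tiparp. They were 215 and 73.2 TPM for Mt1 and 67.6 and 10.5 TPM for Mt2. In Th17n, in the same order, they were 15.8 and 3.83, 13.8 and 8.77, 175 and 86, and 65.9 and 17.2 TPM. A lower Th17p mean was thus seen with both compounds for Il17f, Tnfrsf8, Tiparp, Mt1 and Mt2. Cyp1b1 had the opposite sign with DHEA (-0.86 and 2.72, adjusted p = 4.9e-09), where its Th17n mean went from 11.2 to 0.528 TPM. Tnfsf11 did not depart (2.83 and 1.12, adjusted p = 0.059), and Il3 did (2.63 and 0.39, adjusted p = 0.012).

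By list, 14 of 22 glycolytic genes departed downward and none upward, beside 4.26% and 6.08% over all genes. Their DHEA difference itself was positive for 11 and negative for 1. Of the p53 targets 10 of 28 departed upward and none downward, and of the G2 and M phase genes 12 of 27 departed downward and none upward. Cholesterol synthesis had 10 negative differences with DHEA too, and 1 of 23 genes departed. In fatty acid synthesis none of 15 genes departed at an adjusted p under 0.05.

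**Figure D5:**
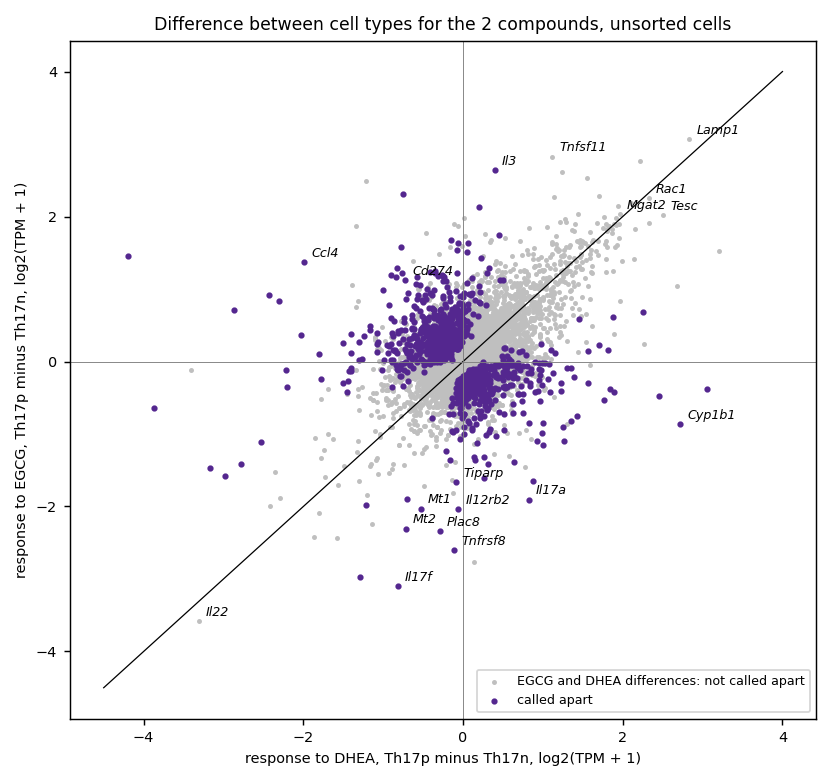
Difference between cell types (Th17p minus Th17n) in the response to DHEA (horizontal) and to EGCG (vertical) on the log2(TPM + 1) scale for 10672 genes; purple points are the 1104 genes called apart and the black line marks equal differences. Lamp1, Rac1, Mgat2 and Il22 lie near the line, and Il17f, Tnfrsf8, Il12rb2, Mt1 and Mt2 lie below it.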

How the data were processed

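Polyadenylated RNA was sequenced; the submitters' processing notes name Trimmomatic, kallisto and mm10, with versions not given in the sources used here. The authors deposited TPM values, with a single value for each symbol in each library; the step from transcripts to symbols was not given, and the 20 columns sum to between 880077 and 893029 TPM. TPM keep no read counts, so no count test or counting interval was possible, and reads shared within gene families cannot be resolved. No mitochondrially encoded genes are in the table. Of 20465 symbols, 19745 matched an mm10 annotation.

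Groups were taken from the titles. Well A4, labelled Th17n in a row of Th17p, did not enter the fit. Genes at 1 TPM or more in at least 4 of 78 libraries were kept (10672), and log2(TPM + 1) was fitted with 16 group means in limma 3.58.1 (R 4.3.3), with moderation along a trend on mean expression. Tests were two-sided with Benjamini-Hochberg adjustment over all genes within each of 7 comparisons. The fit was first tested on simulated data.

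Named genes were the 10 most positive and 10 most negative called differences at 5 TPM or more in a group, the 8 each way at 5 TPM in both types, the 6 each way with opposite called responses, up to 4 members per list with the smallest p, and a set of 18 Th17 and metabolic genes, passing over predicted genes; those described are a part of these, and some are not reported here. Hba-a1, Hbb-bs, Entpd1, Ptprc, Rgs1, Rac1 and Lamp1 were added after their values were seen. The members and lists were chosen with earlier results of these data known. Replicates were treated as unpaired. The labels speak of 5 mice per condition without linking libraries to animals across groups. Alternatives were a pseudocount of 0.1, no filter, rescaling by median ratio, fitting the groups alone, a replicate block, A4 in its labelled group, genes at 5 TPM in both types, each library left out, and, chosen after seeing the data, leaving out well column 1. Promoters came from RefSeq on GRCm38.p6.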

Additional observations from a re-analysis of the deposited data

Results flagged for a closer look

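The response to EGCG differed between Th17p and Th17n for 2127 genes, as described in the report. The difference itself differed between unsorted and Div.1 cells for 9 genes, and for 3 to 105 under the alternatives. Among the 9 were 3 genes of known T cell function that were singled out after their values were seen. Entpd1, encoding the ectonucleotidase CD39, had a difference of -0.73 in unsorted cells and 0.74 in Div.1 cells, which is -1.47 between the sorts. Its unsorted difference was not called with the groups fitted alone (adjusted p = 0.0526) or with A4 put back (adjusted p = 0.0881). Without well column 1 it was -0.48 and not called (adjusted p = 0.111). Ptprc, encoding CD45, had 0.37 and -0.18 (0.55 between the sorts), and Rgs1 had 1.67 and 0.94 (0.72 between the sorts).

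In 21 of 292 combinations of a gene and a group, 1 library stood apart from the other 4 by Dixon's criterion at the 95% level, where about 1 in 20 would by chance. The scan covered 74 of the named genes and not the others. Replicate 1 was that library in 9 of the 21. In that replicate Dusp2 was low in both DMSO groups, at 73.2 TPM against 175 to 216 TPM in Th17p and at 20.9 TPM against 64.7 to 74.1 TPM in Th17n. Srm was also low in Th17p with DMSO (278 TPM against 508 to 585), as were Perp in Th17n with DMSO (15.9 TPM against 18.8 to 19.9), Ramp3 in Th17p with EGCG (17.9 TPM against 28 to 30) and Tnfsf11 in Th17n with EGCG (0.411 TPM against 2.12 to 2.56). In Th17p with EGCG, replicate 1 was high for Il18r1 (3.95 TPM against 1.62 to 1.8), Il9 (5.87 TPM against 0.472 to 1.82) and Il10 (0.156 TPM with the others at 0).

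In Th17p with DMSO, Ccl1 was at 7.21 TPM in replicate 2 and at 0 elsewhere, Foxp3 at 0.383 TPM in replicate 3, Il18r1 at 8.46 TPM in replicate 4 and Tnfsf4 at 1.32 TPM in replicate 4. In Th17p with EGCG, Il23r was at 3.77 TPM in replicate 2, and Eda2r at 6.31 TPM and Il2ra at 213 TPM in replicate 5. In Th17n with EGCG, replicate 4 was high for Il9 (1626 TPM), Phf13 (5.19 TPM) and Tgfbr1 (12.7 TPM), Ptprc was at 142 TPM in replicate 3, and Mt2 was at 80.9 TPM in replicate 5.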

How the results depend on the processing

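The number of genes with a called difference in unsorted cells was 2127 and stayed between 1661 and 2548 under the other settings, with 1898 to 2159 when 1 library was left out. It was 1855 with A4 in its labelled group, 1816 among genes at 5 TPM in both types, and 1661 without well column 1, a setting chosen after seeing the data. With the replicate block it was 2548 (1555 positive, 993 negative) and 2126 of the 2127 calls remained; Cdkn1a (adjusted p = 0.0202) and Cd5l (adjusted p = 0.0491) were called there. Same-numbered libraries correlated positively but weakly in their deviations (0.0245 to 0.287, with 8 of 30 pairs over 0.1). Of 20 libraries, 10 correlated best with their own number in each other group, so some variation was shared by number, which is also the well column. The labels do not link the number to animals, and the main fit did not use it for pairing. The test of unsorted against Div.1 cells moved by over 1.5 times, from 9 calls to 25 after rescaling, 21 with the groups alone, 105 with the replicate block, 4 with A4 put back, and 3 to 14 when 1 library was left out. Of 182 named genes, 155 were called and 127 of these were called under every alternative that gave a value for them, 27 or 28 for each gene; none reversed while called. Depth was unknown, and well row and group were not independent.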

Other observations

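Of 18 genes of naive and quiescent T cells, 7 had a positive and 3 a negative difference (median 0.13). Bach2, a repressor that keeps T cells undifferentiated, rose from 19.1 ± 1.29 to 48.5 ± 2.08 TPM in Th17p and from 43.1 ± 2.17 to 72.8 ± 3.01 TPM in Th17n (0.56 ± 0.09, adjusted p = 3.05e-06). Ccr7, the lymph node homing receptor, rose from 211 ± 20.5 to 444 ± 68.7 TPM and from 419 ± 26.2 to 526 ± 24.6 TPM (0.73 ± 0.12, adjusted p = 3.1e-06). Btg1, an antiproliferative gene, rose in Th17p from 10.3 ± 0.513 to 18.6 ± 1.11 TPM and was at 15.9 ± 0.541 and 16.2 ± 1.22 TPM in Th17n (0.77 ± 0.10, adjusted p = 5.72e-09).

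Timp1, an inhibitor of metalloproteinases, fell in Th17p from 690 ± 90 to 174 ± 49.3 TPM without overlap and was at 1452 ± 198 and 1322 ± 188 TPM in Th17n (-1.88 ± 0.26, adjusted p = 1.67e-07), with a DHEA difference of -2.29. The TGFb receptor genes Tgfbr1 and Tgfbr2 had differences of 0.65 ± 0.14 and 0.75 ± 0.16, among 4 positive and 1 negative of 15 TGFb-related genes. Tgfbr1 was not called with A4 in its labelled group (adjusted p = 0.0843). Of 22 apoptosis regulators, 6 had a positive and 3 a negative difference, beside 12.4% and 7.55% over all genes. Mcl1 was among the 6 and rose in Th17p from 22.9 ± 1.07 to 30.3 ± 1.74 TPM (0.48 ± 0.09, adjusted p = 5.76e-05). Pmaip1 was also positive (0.77 to 1.15 over all settings), and Bcl2l11 was negative (-0.91 to -0.65). Of 21 genes of fatty acid oxidation, 15 rose in Th17p and 12 in Th17n, beside 30.1% and 21.7% of all genes. There were 3 positive differences and 1 negative, beside 12.4% positive and 7.55% negative over all genes.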
